A study of Mus musculus with 12 samples.

Results

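Interferon-stimulated genes were followed in RNA-seq libraries from perigonadal white adipose tissue (the fat pad around the gonads) of mice that lack Cdk7 in adipose tissue (ko) and of wild-type littermates (wt). The set holds 31 genes, chosen by symbol from the known targets of interferon signalling. All 31 were matched among the 53379 gene identifiers of the count files, and all 31 passed the filter on low counts. The question was whether a low level of Ifi27l2a in ko fat is shared by the other interferon-stimulated genes. Mice were C57BL/6, 9 weeks old and killed at zeitgeber time 9, after 7 days of CL or saline. The labels give CL only by this abbreviation, which in this field stands for a beta-3-adrenergic agonist. The 4 groups were ko CL, ko saline, wt CL and wt saline, with 3 libraries each. Each library held RNA of 2 mice, 250 ng from each, so that a group rests on 6 mice and its spread is that between pools. The labels describe the knockout as adipose-specific and do not give the Cre driver.

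Interferons are secreted proteins that bind receptors on the cell surface and activate STAT transcription factors through JAK kinases. Type I and type III interferons act through a complex that contains STAT2 and IRF9 and binds the interferon-stimulated response element in the promoters of its targets. Those targets encode sensors of foreign nucleic acid, enzymes and membrane proteins that limit viruses, and regulators that amplify or end the response. In fat, adipocytes, endothelial cells and immune cells can all carry this programme.

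Genotype was checked on Cdk7 itself, because groups were taken from the sample titles and a genotype characteristic in the labels contradicts 6 of the 12 titles. Cdk7 was at 18.1 to 23.6 CPM in ko CL, 11.02 to 11.7 CPM in ko saline, 30.4 to 35.4 CPM in wt CL and 29.3 to 29.98 CPM in wt saline. CPM are counts relative to library size on the usual scale, after TMM scaling, which corrects library sizes for differences in composition. Its log2 fold change was -1.38 ± 0.10 in ko saline against wt saline and -0.68 ± 0.09 in ko CL against wt CL (SE, adjusted p = 6.21e-06 and 3.64e-05). Adjusted p-values here and below come from the quasi-likelihood test of edgeR, adjusted over 16554 genes by the Benjamini-Hochberg method, and a gene is called at an adjusted p under 0.05. Libraries held 21892817 to 27985019 gene counts. All 12 adipocyte markers were detected, with summed levels of 8385 to 12700 CPM in ko CL, 16980 to 18250 in ko saline, 30420 to 33080 in wt CL and 24940 to 27590 in wt saline. The 19 macrophage markers summed to 8357 to 11550 CPM in ko CL, 1776 to 1859 in ko saline, 997.6 to 1178 in wt CL and 1859 to 1954 in wt saline, with Itgam at 0 in every library. In bulk tissue, fewer cells of a type and less RNA per cell cannot be told apart. A pair of libraries stood apart from their groups. The 12 markers of duct and ciliated epithelium summed to 165.0 to 237.9 CPM in ko saline, and to 89.6 CPM in wt saline 1, against 21.6 and 23.0 CPM in the other wt saline libraries. The 10 B cell markers summed to 2668 CPM in ko CL 2, against 462.0 and 505.8 CPM in the other ko CL libraries.

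Promoter sequences were available for 21 of the 31 genes, as RefSeq windows on GRCm38.p6 of 250 bases before to 50 bases after the gene start. They were searched on both strands for GAAANNGAAA, the core of the interferon-stimulated response element. A match was found in 12 of the 21 genes (57.1%), against 3.99% of the 27025 genes that have such a window. Ifih1, Ddx58 (called lower in ko CL against wt CL), Ifitm3 and Eif2ak2 had matches only after the gene start, which are not shown. A second match of Trim30a, at 2 to 11 relative to the gene start, is not shown either. The 8 stretches below hold the matches that lie before the gene start. They come from genes lower in ko CL than in wt CL (Isg15, Ifit1, Ifit3), higher (Oas1a, Trim30a) or not called (Stat2, Rsad2, Bst2). Each runs 5′ to 3′ along the gene's strand with up to 30 bases on either side, and capitals mark the match, which appears as TTTCNNTTTC where it lies on the opposite strand.
Isg15: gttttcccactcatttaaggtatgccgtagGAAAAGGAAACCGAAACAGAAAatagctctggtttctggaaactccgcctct
Ifit1: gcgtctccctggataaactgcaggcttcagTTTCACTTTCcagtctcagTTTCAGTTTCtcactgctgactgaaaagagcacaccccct
Ifit3: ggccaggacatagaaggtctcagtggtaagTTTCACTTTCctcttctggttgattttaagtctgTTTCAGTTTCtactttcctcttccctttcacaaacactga
Oas1a: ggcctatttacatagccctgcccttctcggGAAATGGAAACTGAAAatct
Trim30a: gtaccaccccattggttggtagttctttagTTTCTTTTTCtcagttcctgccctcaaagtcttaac
Stat2: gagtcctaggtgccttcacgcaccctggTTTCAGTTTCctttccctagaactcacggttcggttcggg
Rsad2: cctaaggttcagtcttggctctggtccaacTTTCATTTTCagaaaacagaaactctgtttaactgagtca
Bst2: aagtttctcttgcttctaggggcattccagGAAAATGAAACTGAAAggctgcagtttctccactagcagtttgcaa

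These stretches lie at chr4:156200845-156200926 on the minus strand for Isg15, chr19:34640755-34640843 on the plus strand for Ifit1 and chr19:34583343-34583446 on the plus strand for Ifit3. Oas1a is at chr5:120907526-120907575 on the minus strand and Trim30a at chr7:104465194-104465259 on the minus strand. Stat2 is at chr10:128270248-128270315 on the plus strand, Rsad2 at chr12:26456533-26456602 on the minus strand and Bst2 at chr8:71537557-71537632 on the minus strand. Isg15 held 3 overlapping matches at -78 to -57 relative to the gene start, and Oas1a held 2 at -20 to -5. By direction in ko CL against wt CL, the match was present in 4 of the 9 genes with a window that were lower, 2 of the 4 that were higher and 6 of the 8 that were not called. The gamma-activated site TTCNNNGAA, searched in the same windows, was found in 6 of the 21 genes (28.6%), against 9.55% of all genes. No window was found for Ifi27l2a, Ifi27, Oas2, Mx1, Mx2, Usp18, Dhx58, Zbp1, Rtp4 and Parp14.

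Ifi27l2a, a small hydrophobic protein of the interferon-inducible Ifi27 family (ENSMUSG00000079017, GRCm38 chromosome 12, 103442167 to 103443680, minus strand), was lower in ko fat under both treatments. Under saline it was at 55.8, 69.3 and 87.2 CPM in the ko libraries, against 625.9, 450.9 and 553.0 CPM in the wt libraries. Under CL it was at 63.6, 72.3 and 68.2 CPM in the ko libraries, against 375.6, 314.3 and 335.5 CPM in the wt libraries. The highest of the 6 ko libraries was thus far below the lowest of the 6 wt libraries. The log2 fold change was -2.94 ± 0.16 in ko saline against wt saline (adjusted p = 2.13e-06), which is 7.67-fold lower. It was -2.33 ± 0.15 in ko CL against wt CL (adjusted p = 6.06e-08), which is 5.02-fold lower. Among the 1781 tested genes that averaged at least 100 CPM in wt saline, none had a lower log2 fold change of ko saline against wt saline than Ifi27l2a. Under CL, 20 of 1955 such genes, Ifi27l2a included, were at or below its value. Both calls held in each of the 12 fits that left out 1 library, with values of -3.12 to -2.79 under saline and -2.39 to -2.26 under CL. The question was set with this low level in these libraries known, so the rank, calls and fits only describe it.

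**Figure D1:**
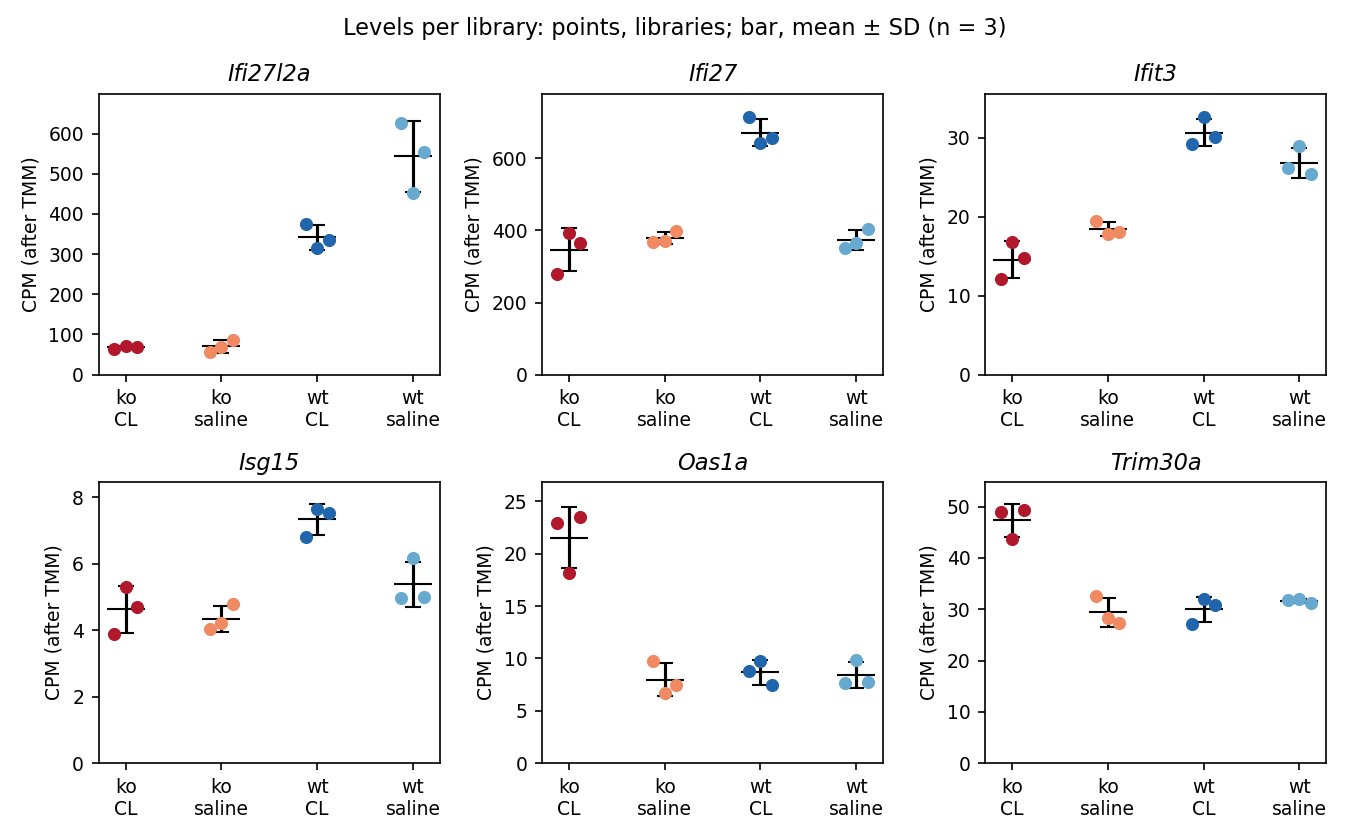
Levels of 6 interferon-stimulated genes in CPM after TMM scaling, on linear axes that start at 0, with points for libraries and bars for the mean ± SD of 3 libraries in ko CL, ko saline, wt CL and wt saline. Ifi27l2a was at 55.8 to 87.2 CPM in all 6 ko libraries and at 314.3 to 625.9 CPM in all 6 wt libraries, while Oas1a and Trim30a were highest in ko CL.

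Per length of transcript, Ifi27l2a was below Ifi27 in ko saline and above every other member in wt saline. In FPKM (CPM per kilobase of exon), ko saline averaged 258.2 for Ifi27, 155.6 for Ifitm3, a membrane protein that blocks virus entry, and 152.9 for Ifi27l2a. The gap between Ifitm3 and Ifi27l2a was smaller than the spread of Ifi27l2a between libraries, which had an SD of 15.7 CPM on a mean of 70.8. In wt saline Ifi27l2a averaged 1173 FPKM, Ifi27 254.7, Ifitm3 162.4 and Bst2 27.1, and the other 27 members were between 0.859 and 19.2. Ifi27l2a gave 5.56% to 5.92% of the summed CPM of all 31 members in ko CL, 4.81% to 7.45% in ko saline, 17.7% to 20.8% in wt CL and 27.9% to 36.4% in wt saline. Without Ifi27l2a and Ifi27 the other 29 members summed to 755.8 to 793.8 CPM in ko CL, 664.2 to 737.4 in ko saline, 717.8 to 820.1 in wt CL and 743.9 to 801.0 in wt saline. The ko saline libraries lay below the wt saline libraries in that sum, and the ko CL libraries overlapped the wt CL libraries.

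The direct neighbour Ifi27, the gene that gives the family its name, did not share the pattern under saline. Ifi27 (chromosome 12, 103434211 to 103440239, plus strand) was at 368.0, 371.3 and 397.2 CPM in ko saline, against 351.7, 365.3 and 403.8 CPM in wt saline, and these ranges overlap. Its log2 fold change was 0.02 ± 0.11 (adjusted p = 0.931). Under CL it was at 280.2, 393.4 and 366.2 CPM in ko, against 714.0, 643.0 and 657.0 CPM in wt. All 3 ko CL libraries were below all 3 wt CL libraries, with a log2 fold change of -0.95 ± 0.11 (adjusted p = 8.5e-06). Among the other tested genes within 100000 bases of Ifi27l2a, Ddx24, an RNA helicase, was higher in ko under saline (0.26 ± 0.05, adjusted p = 0.00788) and lower in ko under CL (-0.23 ± 0.05, adjusted p = 0.00252). Otub2 and Asb2 were not called in either comparison. Ppp4r4 and Gm47267 were lower in ko under CL (-0.97 ± 0.13 and -1.57 ± 0.24, adjusted p = 3.79e-05 and 0.000112) and not called under saline (0.29 and 0.32). The paralog Ifi27l2b had 0 to 6 counts per library and was not tested.

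In ko saline against wt saline, Ifi27l2a was the only member at least 2-fold lower, and few of the others passed the test. Of the 31 members 0 were called higher and 4 were called lower (Ifi27l2a, Ifit3, Oasl2 and Bst2), where 7.99% of all tested genes were called higher and 6.45% lower. At an unadjusted p under 0.05 in edgeR 0 were higher and 11 lower. The share of all genes at that threshold is not given here, so that these counts cannot be set against it. By DESeq2 0 members were higher and 5 lower, where 8.54% and 7.26% of all tested genes were. The log2 fold change was below 0 in 29 of 31 members, against 51.3% of all tested genes, with a median of -0.20 against -0.01 over all genes. The exceptions were Ifi27 and Eif2ak2, the double-stranded RNA-activated kinase PKR, at 0.02 and 0.11 (adjusted p = 0.931 and 0.435). In 14 members every ko saline library was below every wt saline library, and in 0 members was every one above, where 18.2% and 19.4% of all tested genes did so. Without Ifi27l2a, the other 30 members had a median of -0.20 and a range of -0.54 to 0.11.

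Ifit3, a member of the IFIT family of RNA-binding antiviral proteins, was at 19.4, 17.8 and 18.1 CPM in ko saline, against 26.2, 29.0 and 25.3 CPM in wt saline. The groups did not overlap, and the log2 fold change was -0.54 ± 0.10 (adjusted p = 0.00542). Its partners Ifit1 and Ifit2 were at -0.03 and -0.01 (adjusted p = 0.936 and 0.952). Oasl2, related to the oligoadenylate synthetases, was at 31.7, 29.0 and 32.7 CPM in ko saline, against 35.9, 37.8 and 36.5 CPM in wt saline, without overlap (-0.24 ± 0.07, adjusted p = 0.033). Bst2, the membrane protein tetherin that holds budding virus particles at the cell surface, was at 19.0, 18.4 and 19.3 CPM in ko saline, against 21.5, 27.5 and 24.4 CPM in wt saline (-0.37 ± 0.12, adjusted p = 0.0482). The ko and wt libraries of Bst2 did not overlap. The transcription factors of the set were not called: Irf7 was at -0.38 ± 0.14 (adjusted p = 0.0912), Irf9 at -0.21 ± 0.07 (adjusted p = 0.0659) and Stat2 at -0.13 ± 0.07 (adjusted p = 0.21).

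The calls of Bst2 and Oasl2 depended on single libraries. Bst2 was no longer called without wt saline 2 or 3, wt CL 1, any 1 ko saline library, or ko CL 2 or 3 (-0.45 to -0.28 over the 12 fits). Oasl2 was no longer called without any 1 wt saline library or ko saline 1 or 2 (-0.27 to -0.18). Counts of members called lower were 2 without wt saline 2, wt saline 3 or ko saline 2, and 7 without ko CL 1. The share of all tested genes called lower moved too, to 3.83%, 3.29%, 3.27% and 8.06% in the same order, from 6.45% with all libraries. With wt saline 1 and ko CL 2 both left out, 0 members were higher and 5 lower, where 8.59% and 5.6% of all tested genes were. With library size alone in place of TMM, the median of all genes moved to 0.15, and 18 of 31 members were below 0, 1 was called higher and 2 lower. Relative to that median, 29 of 31 were again below. With this scaling, 22.6% of all tested genes were called higher and 3.06% lower. Of the 12 adipocyte markers, 7 fell in this comparison and 0 rose, of 12 endothelial markers 3 fell and 0 rose, of 12 duct markers 7 rose and 0 fell, and of 18 macrophage markers tested 0 were called (1 higher and 2 lower at an unadjusted p under 0.05 in edgeR, and 0 by DESeq2). The part of these differences in the values of the members was not tested.

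**Figure D2:**
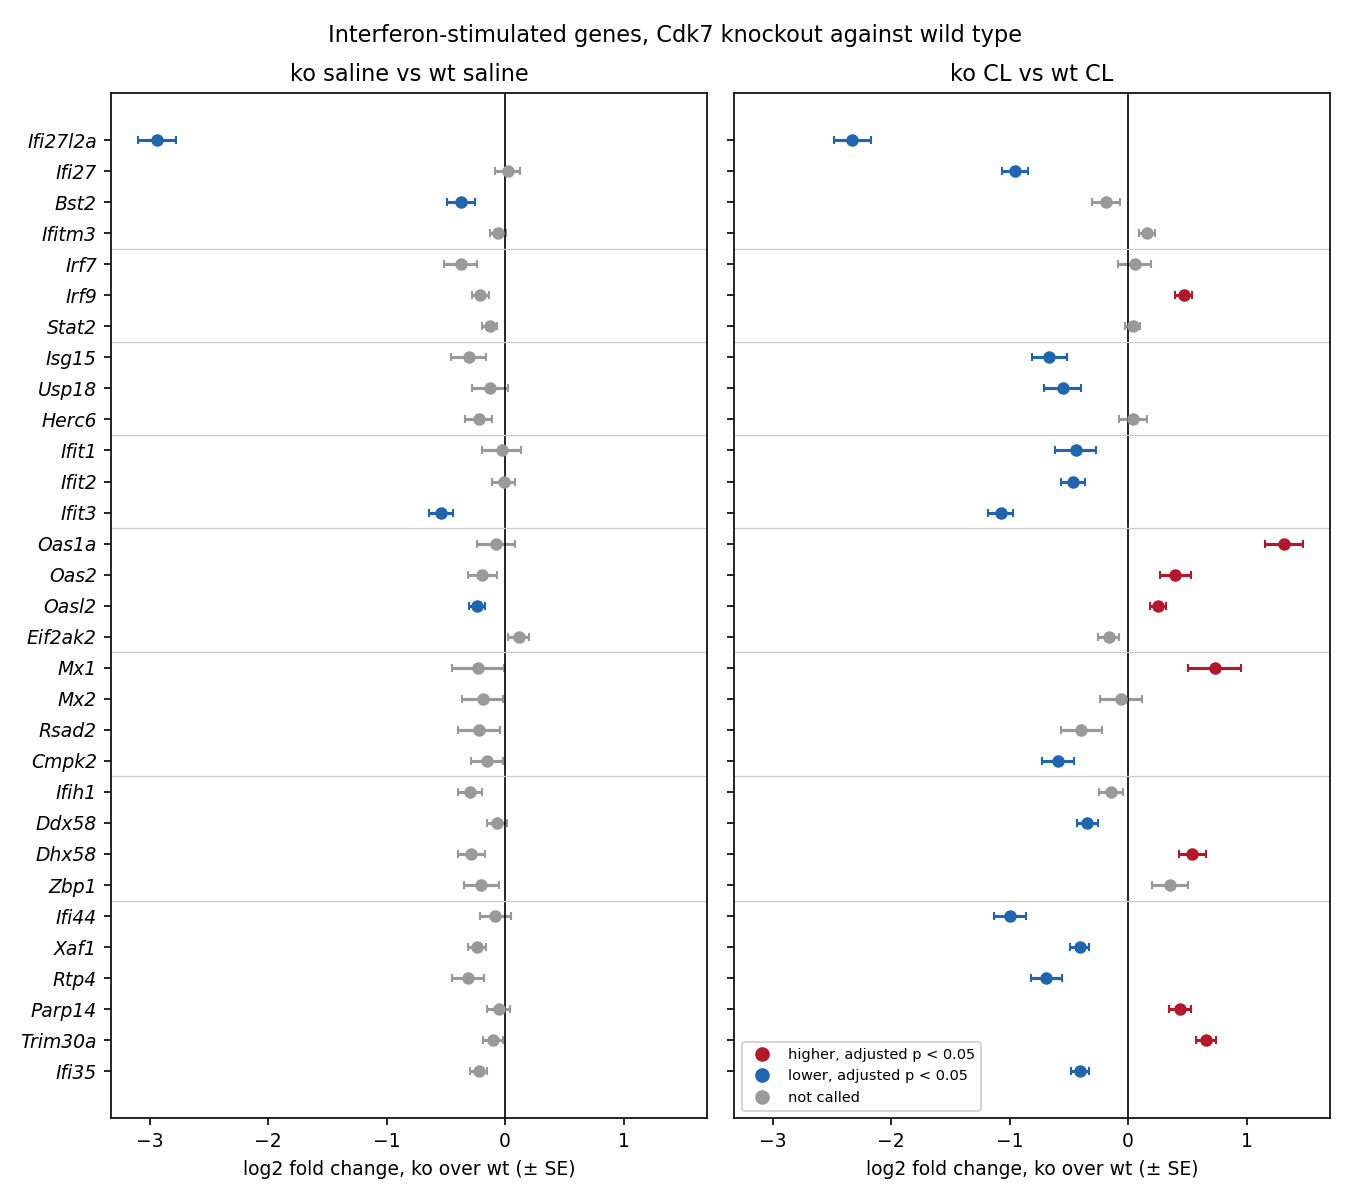
Log2 fold change of each of the 31 members in ko over wt under saline (left) and under CL (right), with SE, grouped by role, with blue for members called lower (4 under saline, 13 under CL), red for members called higher (0 and 8) and grey for those not called. Ifi27l2a, at -2.94 and -2.33, lies apart from the rest in both panels.

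Under CL, members were called in both directions, the share called higher being close to that of all genes. In ko CL against wt CL, 8 members were called higher (25.8%) and 13 lower (41.9%), where 27.6% of all tested genes were called higher and 29.3% lower. Without Ifi27l2a, 8 of the other 30 were higher (26.7%) and 12 lower (40.0%). The median of the members was -0.16, against 0.00 over all genes. In 13 members every ko CL library was below every wt CL library and in 9 every one was above, where 32.7% and 30.9% of all tested genes did so. Scaling by library size alone moved the median of all genes to 0.39 and gave 15 higher and 4 lower, where 52.4% and 13.5% of all tested genes were. The 4 members called lower under both scalings were Ifi27l2a, Ifi27, Ifit3 and Ifi44.

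All 3 members of the IFIT family and 2 of 3 members of the ISG15 system were called lower. Ifit3 was at 12.1, 16.7 and 14.8 CPM in ko CL, against 29.2, 32.5 and 30.1 CPM in wt CL. These groups were well apart, with a log2 fold change of -1.08 ± 0.11 (adjusted p = 1.96e-06). Ifit2 was at 15.9, 17.5 and 17.1 CPM in ko CL, against 19.8, 25.5 and 24.5 CPM in wt CL (-0.47 ± 0.10, adjusted p = 0.00127). Ifit1 was at -0.44 ± 0.17 (adjusted p = 0.0394). Without TMM, by library size alone, only Ifit3 of the family was called lower, and Ifit1 and Ifit2 were at -0.06 and -0.08. Isg15, a ubiquitin-like protein that is attached to other proteins during the response, was at 3.88, 5.31 and 4.70 CPM in ko CL, against 6.82, 7.66 and 7.53 CPM in wt CL. The log2 fold change was -0.66 ± 0.15 (adjusted p = 0.00181), and the groups did not overlap. Usp18, which removes ISG15 and restrains receptor signalling, was at -0.55 ± 0.16 (adjusted p = 0.00833), and Herc6, the ISG15 ligase of the mouse, at 0.04 ± 0.12 (adjusted p = 0.799). Neither Isg15 nor Usp18 was called with library size alone, at -0.28 and -0.17, and Herc6 was then called higher, at 0.42 (adjusted p = 0.00617).

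Ifi44, an interferon-induced cytoplasmic protein, was at 3.95, 3.61 and 3.58 CPM in ko CL, against 7.38, 7.61 and 7.28 CPM in wt CL. Every ko CL library was thus below every wt CL library, with a log2 fold change of -0.998 ± 0.13 (adjusted p = 2.93e-05). Rtp4, a chaperone of receptors in the Golgi that is induced by interferon, fell by 0.69 on the log2 scale (SE 0.13, adjusted p = 0.000617). Xaf1, which binds the apoptosis inhibitor XIAP, fell by 0.41 (SE 0.08, adjusted p = 0.000768), and Ifi35 by 0.41 (SE 0.07, adjusted p = 0.000383). Cmpk2, a mitochondrial nucleotide kinase, was at -0.59 ± 0.14 (adjusted p = 0.00235). Under library size alone Rtp4, Xaf1, Ifi35 and Cmpk2 had values below 0 (-0.31, -0.03, -0.02 and -0.21) and were not called. Ddx58, the RNA sensor RIG-I, was at -0.35 ± 0.09 (adjusted p = 0.00448), and library size alone turned its sign (0.04).

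The oligoadenylate synthetases, which make the activator of RNase L when they bind double-stranded RNA, were on the higher side. Oas1a was at 22.9, 18.2 and 23.5 CPM in ko CL, against 8.83, 9.73 and 7.43 CPM in wt CL. The lowest ko CL library was above every library of the other 3 groups, and the log2 fold change was 1.31 ± 0.16 (adjusted p = 1.41e-05), or 2.48-fold. Oas2 was at 17.98, 16.5 and 22.1 CPM in ko CL, against 14.2, 16.4 and 12.2 CPM in wt CL, with ko CL 2 just above wt CL 2 (0.40 ± 0.13, adjusted p = 0.0172). Oasl2 was at 40.1, 36.5 and 39.1 CPM in ko CL, against 32.8, 34.0 and 30.5 CPM in wt CL (0.25 ± 0.07, adjusted p = 0.00653). Oasl2 was therefore called lower under saline and higher under CL, and it was the only member called in opposite directions in these comparisons.

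Others on the higher side were Trim30a, a tripartite-motif protein that dampens Toll-like receptor signalling, and Parp14, an ADP-ribosyltransferase. Trim30a was at 48.9, 43.7 and 49.4 CPM in ko CL, against 27.2, 32.0 and 30.7 CPM in wt CL (0.66 ± 0.08, adjusted p = 1.94e-05). Parp14 was at 121.9, 107.8 and 112.3 CPM in ko CL, against 74.5, 92.1 and 85.9 CPM in wt CL (0.44 ± 0.10, adjusted p = 0.0016). Neither gene had overlapping groups. Dhx58, the RNA sensor LGP2, was at 15.5, 12.8 and 14.4 CPM in ko CL, against 9.06, 10.3 and 9.93 CPM in wt CL (0.54 ± 0.11, adjusted p = 0.00124). Irf9, the DNA-binding subunit of the complex with STAT2, was at 36.9, 34.1 and 33.4 CPM in ko CL, against 24.5, 27.2 and 23.7 CPM in wt CL (0.47 ± 0.07, adjusted p = 9.7e-05). Both were above wt CL in every library. Mx1, of the Mx family of GTPases, was at 6.79, 9.92 and 10.6 CPM in ko CL, against 4.19, 5.11 and 7.08 CPM in wt CL. Its groups overlapped (0.73 ± 0.22, adjusted p = 0.013).

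The 10 members not called in ko CL against wt CL were Bst2, Ifitm3, Irf7, Stat2, Herc6, Eif2ak2, Mx2, Rsad2, Ifih1 and Zbp1. Rsad2, the antiviral enzyme viperin, was at -0.39 ± 0.17 (adjusted p = 0.0711) and Zbp1, a sensor of left-handed nucleic acid that can trigger cell death, at 0.36 ± 0.15 (adjusted p = 0.0595). Calls at the edge of the threshold were lost with single libraries: Ifit1 without wt saline 3, wt CL 2 or 3, or ko CL 1 or 3 (-0.57 to -0.29), Mx1 without wt CL 1 or ko CL 3 (0.57 to 0.96) and Oas2 without wt CL 3 or ko CL 3 (0.26 to 0.51). With wt saline 1 and ko CL 2 both left out, 9 were higher and 13 lower, where 26.2% and 27.8% of all tested genes were. Macrophage markers moved in the same comparison, with 15 of 18 tested called higher and 2 lower, as did adipocyte markers (12 of 12 lower) and endothelial markers (11 of 12 lower and 1 higher). The part of these markers in the members' values was not tested.

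**Figure D3:**
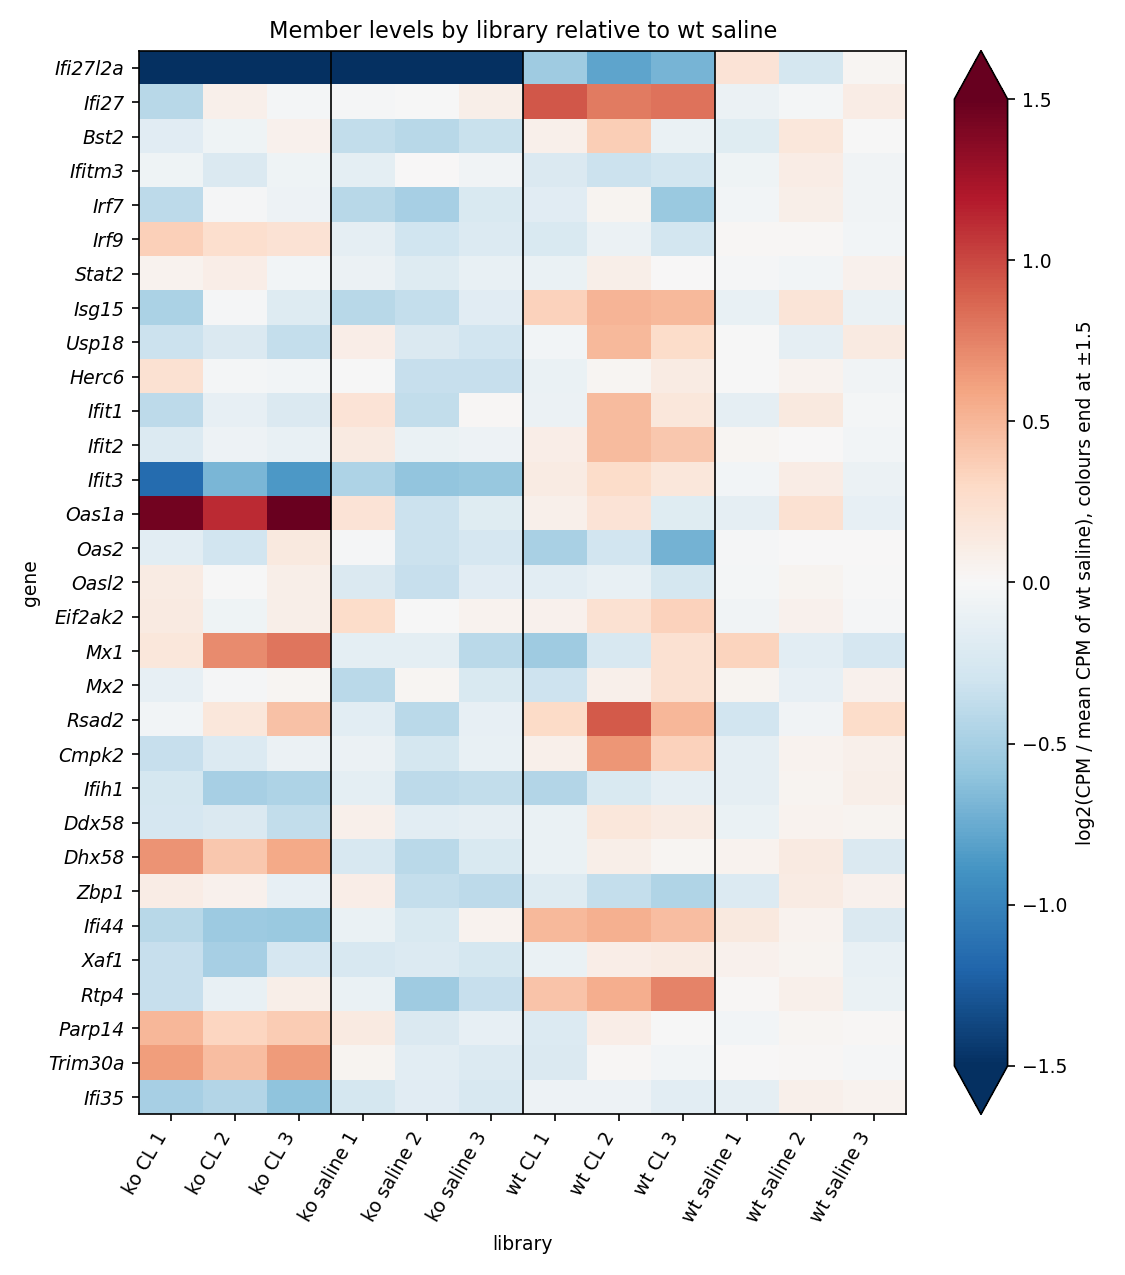
Level of each member in each library as log2 of its CPM over the mean CPM of wt saline, with members in rows grouped by role and libraries in columns; colours end at ±1.5. Ifi27l2a is below the scale in all 6 ko libraries, Oas1a, Mx1 and Trim30a have the highest means in ko CL on this scale, and Ifi27, Rsad2 and Rtp4 in wt CL.

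Only 2 members, Ifi27l2a and Ifit3, were called lower in ko under both treatments, where 4.07% of all tested genes were. With Ifi27l2a set aside, as the gene that the question was set on, Ifit3 alone of the other 30 was called lower in both. The saline and CL comparisons have no library in common. A value below 0 in both comparisons was found in 16 members (51.6%), Ifi27l2a included, against 27.7% of all tested genes. The sizes differed: Ifit3 was 1.46-fold and 2.11-fold lower under saline and CL, against 7.67-fold and 5.02-fold for Ifi27l2a. Ifit3 has a near-identical copy, Ifit3b, which shares 51.2% of its 50-base words, so reads of this pair may be split or left out by the counting. Ifit3b itself was lower in ko than in wt, at -0.48 ± 0.12 with saline (adjusted p = 0.0232) and -1.31 ± 0.13 with CL (adjusted p = 1.83e-06). Oas1a likewise shares 57.6% of its words with Oas1g and Oas1b. Oas1g was at 1.03 under CL (adjusted p = 0.000876).

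The response to CL was read within each genotype. In ko CL against ko saline 9 members were called higher (Irf9, Stat2, Oas1a, Oasl2, Mx1, Bst2, Dhx58, Parp14 and Trim30a) and 3 lower (Ifit3, Ifi44 and Ifi35), where 27.2% and 27.5% of all tested genes were. In wt CL against wt saline 7 were called higher (Ifi27, Isg15, Ifit2, Rsad2, Ifi44, Cmpk2 and Rtp4) and 3 lower (Ifi27l2a, Oas2 and Ifitm3), where 19.6% and 17.1% of all tested genes were. The shares of members called higher or lower were near those of all genes or below them. No member was called higher in both genotypes and none lower in both, where 5.66% and 7.23% of all tested genes were, and library size alone gave 3 lower in both (Ddx58, Ifi35 and Xaf1). Ifi44 was called lower with CL in ko and higher with CL in wt. The medians of the members were 0.10 in ko and 0.02 in wt, against -0.01 over all genes in each.

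Oas1a had the largest increase with CL of the members in ko fat, at 22.9, 18.2 and 23.5 CPM in ko CL, against 9.72, 6.74 and 7.44 CPM in ko saline (1.43 ± 0.16, adjusted p = 7.29e-06). Dhx58 was at 15.5, 12.8 and 14.4 CPM in ko CL, against 8.19, 7.36 and 8.26 CPM in ko saline (0.84 ± 0.11, adjusted p = 4.29e-05). In wt these genes were at 0.04 and 0.01 with CL (adjusted p = 0.859 and 0.946). Trim30a was at 48.9, 43.7 and 49.4 CPM in ko CL, against 32.7, 28.3 and 27.4 CPM in ko saline (0.69 ± 0.08, adjusted p = 1.54e-05). Mx1 was at 6.79, 9.92 and 10.6 CPM in ko CL, against 5.48, 5.46 and 4.56 CPM in ko saline (0.81 ± 0.22, adjusted p = 0.00654). The lowest ko CL library of each of these genes was above its highest ko saline library. Irf9 rose by 0.49 ± 0.07 (adjusted p = 8.06e-05), Parp14 by 0.46 ± 0.10 (adjusted p = 0.00122) and Oasl2 by 0.31 ± 0.07 (adjusted p = 0.00169). Among the decreases, Ifit3 fell by 0.34 (SE 0.10, adjusted p = 0.0149) and Ifi35 by 0.29 (SE 0.07, adjusted p = 0.00478). The call of Bst2 (0.32) was lost without any 1 ko saline library or ko CL 2 or 3 (0.22 to 0.35), and that of Stat2 (0.17) in all but the fits without wt CL 1 or wt CL 2 (0.11 to 0.17). In this comparison macrophage markers were higher in 14 of 18 and lower in 3, while adipocyte markers were lower in 9 of 12, endothelial markers in 10 of 12 and duct markers in 12 of 12. In wt CL against wt saline macrophage markers were lower in 14 of 18, adipocyte markers higher in 3 and lower in 2 of 12, endothelial markers higher in 5 and lower in 1 of 12, and duct markers higher in 1 and lower in 10 of 12. The part of these markers in the responses of the members was not tested.

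Ifi27 had the largest increase with CL of the members in wt fat. In ko its values given above for CL and saline overlapped (-0.13 ± 0.11, adjusted p = 0.342). In wt it was at 714.0, 643.0 and 657.0 CPM with CL, against 351.7, 365.3 and 403.8 CPM with saline (0.85 ± 0.11, adjusted p = 8.39e-05). Ifi27l2a was at -0.06 ± 0.15 with CL in ko (adjusted p = 0.767), and in wt it fell by 0.67 on the log2 scale (SE 0.15, adjusted p = 0.00333), so that these neighbouring genes moved in opposite directions in wt. The ratio of Ifi27l2a to Ifi27 in CPM was 0.184 to 0.227 in ko CL, against 0.152 to 0.220 in ko saline, and 0.489 to 0.526 in wt CL, against 1.23 to 1.78 in wt saline. In ko Ifi44 was at 3.95, 3.61 and 3.58 CPM with CL, against 4.93, 4.50 and 5.46 CPM with saline (-0.42 ± 0.13, adjusted p = 0.0165). In wt it was at 7.38, 7.61 and 7.28 CPM with CL, against 5.84, 5.44 and 4.52 CPM with saline (0.50 ± 0.13, adjusted p = 0.00981).

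The calls in wt CL against wt saline depended on the scaling. Library size alone moved the median of all genes to -0.33, and the split became 1 higher (Ifi27) and 16 lower in place of 7 higher and 3 lower. Of all tested genes, 8.03% were then called higher and 48.6% lower, in place of 19.6% and 17.1%. Calls lower numbered 6 or 7 without any 1 ko library, where 16.9% to 19.4% of all tested genes were lower. Calls higher numbered 3 or 4 without wt saline 1, wt saline 3, wt CL 2 or wt CL 3, where 15.2% to 16.3% of all tested genes were higher. The wt calls lost in such fits were Isg15 without wt saline 1 or 3 or wt CL 2 or 3 (0.38 to 0.56), Ifit2 without wt saline 3 or wt CL 2 or 3 (0.27 to 0.44) and Rsad2 without wt saline 1 or 2 or wt CL 2 (0.40 to 0.76). Cmpk2 was lost in all but those without wt CL 1 or ko CL 1 (0.22 to 0.51). Without wt saline 1 and ko CL 2 together, 4 members were higher and 4 lower, where 15.6% and 14.8% of all tested genes were.

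The difference of the CL responses was tested directly. The response in ko minus that in wt was called in 14 members, 10 higher and 4 lower, where 21.8% and 23.6% of all tested genes were called. Higher were Oas1a (1.39 ± 0.23, adjusted p = 0.000318), Mx1, Dhx58, Trim30a, Irf9, Ifi27l2a, Oas2, Zbp1, Parp14 and Oasl2. Lower were Ifi27 (-0.97 ± 0.15, adjusted p = 0.000255), Ifi44 (-0.91 ± 0.19, adjusted p = 0.00146), Ifit3 (-0.53 ± 0.15, adjusted p = 0.00998) and Ifit2 (-0.45 ± 0.14, adjusted p = 0.0173). Zbp1 was at 8.91, 8.58 and 7.59 CPM in ko CL, against 8.81, 6.44 and 6.25 CPM in ko saline, and at 7.21, 6.41 and 6.01 CPM in wt CL, against 7.16, 8.97 and 8.58 CPM in wt saline. Its CL and saline libraries overlapped in ko and in wt, and the difference was 0.56 (adjusted p = 0.0457). For Ifi27l2a the value was 0.61 ± 0.21 (adjusted p = 0.0303), and the level in ko was low under both treatments. Library size alone gave 15 higher and 2 lower, those 2 being Ifi27 and Ifi44. With wt saline 1 and ko CL 2 both left out, 9 were higher and 4 lower. In this contrast 15 of 18 macrophage markers were called higher and 1 lower, 9 of 12 adipocyte markers lower, and 10 of 12 endothelial markers lower and 1 higher, and their part in the members' values was not tested.

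**Figure D4:**
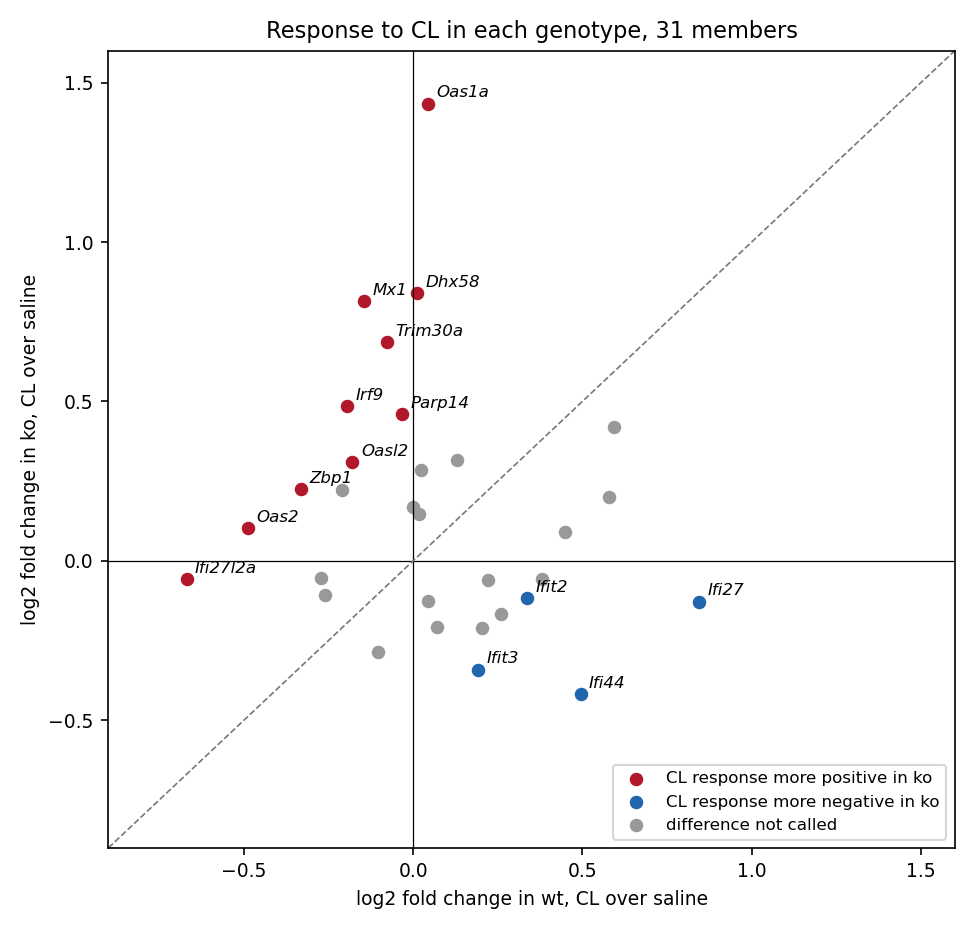
Log2 fold change of CL over saline in wt (x axis) and in ko (y axis) for the 31 members, with a dashed line where both are equal, red for the 10 members whose response was more positive in ko, blue for the 4 whose response was more negative and grey for those whose difference was not called. Oas1a lies highest (1.43 in ko and 0.04 in wt) and Ifi27 farthest right (-0.13 in ko and 0.85 in wt).

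Genes that act before and beside the members were read from further lists. Of 13 interferon ligand genes, 0 passed the filter, 9 had 0 counts in every library, and the most seen for any was 7 counts of Ifng in 1 library. Interferon transcripts were therefore not compared between groups. Other listed genes, Itgam, Trex1 and Ifi47 among them, were also at 0 counts in every library, so that a 0 in these files need not mean that a gene was silent. Of 14 receptor and signal transducer genes, 1 was called in ko saline against wt saline, which was higher (7.99% of all tested genes were higher). In ko CL against wt CL 8 were called, 7 of them higher, where 56.8% of all tested genes were called. The receptor chain genes Il10rb, Ifngr2 and Ifnar1 were at 1.499, 1.26 and 0.65 in ko CL against wt CL (adjusted p = 1.54e-08, 1.04e-07 and 1.85e-05). Stat2, a member, was not called there (0.04 ± 0.07, adjusted p = 0.639).

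Nucleic acid sensing genes, which act before interferon is made, were called in ko CL against wt CL in 13 of 16 tested, all higher (27.6% of all tested genes were higher), and in 0 of 16 in ko saline against wt saline (0 higher and 1 lower at an unadjusted p under 0.05 in edgeR, and 0 by DESeq2). The endosomal receptor gene Tlr7 averaged 89.9 ± 11 CPM in ko CL and 9.40 ± 0.51 CPM in wt CL (SD, n = 3 each), and Tlr8, Irf5 and Aim2 were at 4.10, 3.01 and 2.25 on the log2 scale. Macrophages and other myeloid cells carry these genes, and the macrophage markers moved with them, with a median log2 fold change of 2.40 in the same comparison. Their part in the values of the sensing genes was not tested. Of 40 further type I interferon targets tested, 18 were higher and 8 lower in ko CL against wt CL, and 0 were higher and 8 lower in ko saline against wt saline. The Schlafen gene Slfn2 and the nucleic acid sensor family gene Ifi207 were the most significant under CL, at 2.77 and 2.53, and Parp10, an ADP-ribosyltransferase, under saline, at -0.59 ± 0.07 (adjusted p = 0.000354). Of 24 genes of the interferon-gamma list, 0 were higher and 7 lower (29.2%) in ko saline against wt saline, beside the same 7.99% and 6.45%. All 24 had a value below 0, against 51.3% of all tested genes. In both lists 0 were higher at an unadjusted p under 0.05 in edgeR and 0 by DESeq2. The 7 act in antigen presentation, among them Tap2 (-0.50), H2-D1 (-0.43), B2m (-0.52) and Psmb8 (-0.34). In ko CL against wt CL 5 were higher (20.8%), led by Ciita (2.501). Lower were 13 (54.2%), among them Cxcl9 (-1.54) and Cd274 (-1.12). Under library size alone the saline counts of these lists were 0 higher and 1 lower of the further type I targets, and 0 higher and 3 lower of the interferon-gamma list. Of all tested genes, 22.6% were then called higher and 3.06% lower.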

How the data were processed

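RNA-seq libraries of perigonadal white fat were deposited as raw counts per gene. The authors used STAR and HTSeq with GRCm38, per the submitters' processing notes, in versions not given in the sources used here, and the file names state reverse-strand counting. The 5 summary lines of each file held 12.45% to 17.23% of its reads and were left out. HTSeq leaves out reads that match several places, so near-identical copies are undercounted. Groups come from the sample titles. Of 53379 identifiers, 53274 matched GENCODE M21, which gave symbols and coordinates; 1 symbol of the other lists was matched by a synonym. Tests were run in R 4.3.3 as edgeR 4.0.16 quasi-likelihood tests (filterByExpr with a minimum count of 10, TMM, 1 mean per group over all 12 libraries, 8 residual degrees of freedom). P-values were adjusted by Benjamini-Hochberg over 16554 genes and called at 0.05. A standard error is the size of the log2 fold change divided by the root of its F statistic. CPM are after TMM, and FPKM divide them by the union of exons. The smallest p of an exact permutation test of 3 libraries against 3 is 0.1. No library repeated another of its group within sampling noise (chi-square per degree of freedom 7.44 to 60.3 over pairs). On simulated counts for ko saline against wt saline with 16167 genes, 73 of 100 genes changed 1.5-fold and 100 of 100 changed 2-fold were recovered, with 13 false calls. These counts had the same spread for every gene, no other group differences, and changes only in genes with higher counts. The rates therefore do not give the power for the members. Alternatives were RLE scaling, library size alone, no filter, DESeq2 1.42.0, a replicate block, only the 2 groups compared, leaving out each library, and, chosen after seeing the data, leaving out wt saline 1 and ko CL 2. The members, the other lists and the marker lists were chosen with earlier results of these data known. All members may be named; values per library are given for Ifi27l2a, Ifi27 and members called in both comparisons of ko against wt or in the difference of responses, with Isg15 and Bst2 added after their values were seen, and up to 4 genes with the smallest adjusted p of each other list are named. One gene of the receptor and signal transducer list is not reported here.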

Additional observations from a re-analysis of the deposited data

Results flagged for a closer look

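The response to CL differed between the genotypes in 14 members (45.2%) by the test of the difference itself, near the 45.4% of all tested genes. By direction, 32.3% of the members were higher and 12.9% lower, against 21.8% and 23.6% of all tested genes. The values, as log2 fold change with CL in ko minus that in wt, were 0.61 for Ifi27l2a, 0.68 for Irf9, 1.39 for Oas1a, 0.59 for Oas2, 0.49 for Oasl2, 0.96 for Mx1, 0.83 for Dhx58, 0.56 for Zbp1, 0.49 for Parp14 and 0.76 for Trim30a. They were -0.97 for Ifi27, -0.45 for Ifit2, -0.53 for Ifit3 and -0.91 for Ifi44. Of these, 10 held in each of the 12 fits that left out 1 library. Ifi27l2a was not called without wt saline 1 or 3, wt CL 2 or 3, ko saline 1 or 2, or ko CL 2 or 3 (0.45 to 0.78). Zbp1 was not called without wt saline 2 or 3, wt CL 2 or 3, ko saline 2 or 3, or ko CL 1 or 2 (0.45 to 0.71). Mx1 was not called without wt saline 1, wt CL 1 or 2, ko saline 3, or ko CL 2 or 3 (0.74 to 1.19), and Ifit2 was not called without wt CL 2 (-0.38). Macrophage markers moved with the same contrast, with 15 of 18 tested called higher and 1 lower, as did adipocyte markers (9 of 12 lower) and endothelial markers (10 of 12 lower and 1 higher), and their part in these values was not tested.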

How the results depend on the processing

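Of 65 called gene results, Cdk7 included, 50 held in each of the 12 fits that left out 1 library. DESeq2 kept 64 of 65, RLE scaling 62, no filter 60, library size alone 44, and the 2 groups alone 46 of 50. With library size alone Ddx58 in ko CL against wt CL reversed to 0.038. Counts moved with library size alone in ko saline against wt saline to 1 higher and 2 lower, in ko CL against wt CL to 15 higher and 4 lower, in wt CL against wt saline to 1 higher and 16 lower, in ko CL against ko saline to 5 lower and in the difference of responses to 2 lower. In the same order, the shares of all tested genes called higher were then 22.6%, 52.4%, 8.03%, 22.4% and 32.5%. Those called lower were 3.06%, 13.5%, 48.6%, 33.1% and 13.7%. In wt CL against wt saline, members called lower numbered 6 with RLE scaling, 5 with no filter, 7 with the 2 groups alone and 6 with DESeq2. In the same order, 18.6%, 11.5%, 21.7% and 18.7% of all tested genes were called lower. Without wt saline 1 and ko CL 2 together 4 members were higher, where 15.6% of all tested genes were. Leaving out 1 library gave 0 higher and 2 to 7 lower in ko saline against wt saline, 6 to 9 higher and 12 to 14 lower in ko CL against wt CL, 3 to 8 higher and 3 to 7 lower in wt CL against wt saline, 7 to 10 higher and 3 to 4 lower in ko CL against ko saline, and 7 to 10 higher and 3 to 8 lower in the difference of responses. In ko saline against wt saline, the share of all tested genes called lower was 3.27% to 8.06% in these fits. Apart from the smaller samples and the scaling itself, the cause was not tested. Replicate numbers of the titles did not pair the libraries (correlation of same-numbered deviations -0.355 to 0.176). With a replicate block 2 members were lower in ko saline against wt saline, in place of 4, where 5.62% of all tested genes were. In that setting 61 of 65 gene results held. Of the members, Mx1 had the largest standard errors, at 0.217 to 0.313 over the 5 comparisons.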

Other observations

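Markers of other immune cells were read beside the members. Of 16 markers of T and natural killer cells tested, 6 were called higher (37.5%) and 1 lower (6.25%) in ko CL against wt CL. Of all tested genes, 27.6% and 29.3% were. The summed levels of this list overlapped, at 25.2 to 44.4 CPM in ko CL and 17.3 to 33.2 CPM in wt CL. In ko saline against wt saline 0 of these markers were called (edgeR, with 0 at an unadjusted p under 0.05 and 0 by DESeq2). Of 7 markers of plasmacytoid dendritic cells, the main producers of type I interferon, 6 were higher and 1 lower in ko CL against wt CL, where 27.6% and 29.3% of all tested genes were, and 1 was higher in ko saline against wt saline. The summed level of the plasmacytoid list went the other way from most of its genes under CL, at 142.8 to 152.0 CPM in ko CL, against 164.3 to 182.4 CPM in wt CL, and was 133.6 to 139.5 CPM in ko saline, against 140.1 to 148.3 CPM in wt saline. Irf8 of that list was at 0 in every library. The part of these markers in the members' values was not tested.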
